A study of Mus musculus with 41 samples.

Results

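Endometriosis lesions of mice that had received transferred group 2 innate lymphoid cells (ILC2s) were compared with lesions grown in mice that kept their own ILC2s. The former are called reconstituted here. This name describes the treatment only, as no label states that the cells reached the lesions. The libraries were chosen by their titles, and 8 of the 41 libraries of the series entered this comparison. The 4 reconstituted lesions carried the labelled genotype Nmur1iCre-eGFP Id2fl/fl, the ILC2-deficient genotype of the series, and their mice received 250000 ILC2s into the peritoneal cavity on the day before IL-33. The 4 Cre-control lesions carried Nmur1iCre-eGFP alone, which leaves ILC2s in place. All 8 came from the same lesion model: a 4 mm uterine punch was fixed with glue on the peritoneal wall of mice aged 12 to 16 weeks, and from day 7 each mouse received 3 injections of 1 µg IL-33 over 6 days.

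3 further groups of 4 IL-33-treated libraries each are used beside them. Deficient lesions with added PBS are labelled only as IL-33 treated and PBS treated. They were taken as the transfer design without cells, which the labels do not state. Deficient lesions with IL-33 alone form another group. The third is labelled as deficient fragments in Cre-control hosts. IL-33-treated wild-type (C57Bl/6J) and floxed (Id2fl/fl) lesions, 4 of each, served as other ILC2-competent genotypes. Libraries labelled as Cre-control fragments in deficient hosts (n = 4) served as the other side of the exchange. Shown with the programme means are deficient (n = 2) and wild-type (n = 3) lesions given 120000 ILC2s and IL-33. Deficient lesions given PBS without IL-33 (n = 4) are shown there too. Age range, punch size and injection schedule were the same in all groups. Genes near Id2 go against the exchange labels: Gm6969, described at the end, stood at 1.01 to 5.35 CPM in libraries labelled as deficient fragments and at 11.1 to 23.3 CPM in those labelled as Cre-control fragments, against 17.95 to 22.7 CPM in deficient and 0.667 to 1.74 CPM in Cre-control lesions. In both exchanged groups this gene was nearer to lesions of the genotype labelled as the host. The labels give neither the genotype nor the tissue of origin of the transferred ILC2s. For lesions other than the exchanged fragments they give a single genotype, without naming fragment or host. It was taken as that of both. Nothing in the labels ties each replicate to its own animal. The p-values therefore describe sample-to-sample spread, some of which may be technical.

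ILC2s are tissue lymphocytes without antigen receptors that depend on the transcription factors Gata3 and Id2. They respond to IL-33 through its receptor chain ST2, the product of Il1rl1, and release IL-5 and IL-13. IL-5 sustains eosinophils, and IL-13 acts through STAT6 in macrophages and stromal cells to induce chitinase-like proteins, resistins and chemokines. In the deficient genotype, Cre driven from the Nmur1 locus deletes Id2 in cells that use this locus, chiefly ILC2s.

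Library totals were 28884926 to 46411948 counts in the reconstituted group and 31819484 to 44084048 counts in the Cre controls. Endometrial epithelium markers took 0.00613 to 0.0773% of counts in reconstituted and 0.0263 to 0.0684% in Cre-control lesions, and endometrial stroma markers 0.177 to 0.388% and 0.178 to 0.268%. The library names of the reconstituted and added-PBS lesions interleave, as do those of the Cre-control and deficient lesions, so a difference between these name series cannot be told apart from the one between reconstituted and Cre-control lesions. Genes of the liver list took 7.09% of the counts in Cre control 3, 0.0466 to 0.0542% in the other Cre controls and 0.0141 to 0.138% in the reconstituted lesions. Skeletal muscle genes ranged from 0.0106 to 6.03% in the reconstituted and from 0.011 to 3.38% in the Cre-control lesions. With the genes of both lists left out of library sizes and tests, 167 genes passed in the comparison below in place of 155, and without the libraries over 1% in the liver list 118 passed.

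Of 21249 genes tested, 155 differed between reconstituted and Cre-control lesions at an adjusted p under 0.05 (0.729% of all genes; edgeR quasi-likelihood test with Benjamini-Hochberg adjustment). The 81 lower genes were 0.381% and the 74 higher genes 0.348% of all tested, and 90 of the 155 differed at least 2-fold. In 143 of the 155 the reconstituted and Cre-control libraries did not overlap. Over all genes, 2.91% lay without overlap below and 2.95% above the Cre controls, whether or not they passed the test. Reconstituted lesion 3 stood apart from the other 3, and without it 656 genes passed. Leaving out reconstituted lesion 1 gave 56 genes, and leaving out any other of these 8 libraries except Cre control 4 gave 79 to 91.

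**Figure D1:**
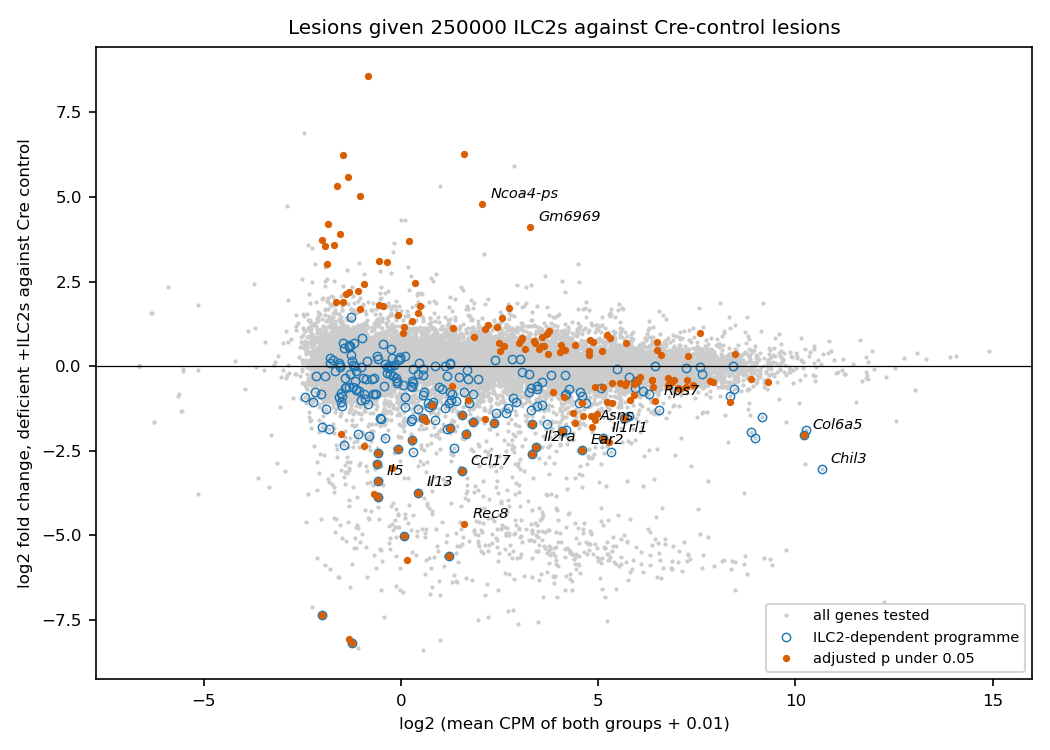
Log2 fold change of reconstituted against Cre-control lesions (y axis) against the mean level of both groups (x axis, log2 of CPM + 0.01). Grey points are all 21249 genes, blue rings the 207 genes of the ILC2-dependent programme and orange points the 155 genes that passed; the grey points far below 0 include the 18 liver genes (median -5.82), of which none passed.

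The upstream sequences of 4 genes lower in the reconstituted lesions are shown because they hold, within 250 bases of the start, motifs linked to the 2 gene groups described below. Il13 and Ccl17 fell in the direct test, as did Asns, an amino acid gene, while Retnla, the resistin-like product of alternatively activated macrophages, did not pass with all libraries in the edgeR test. The sequences are from RefSeq, build GRCm38.p6, read 5′ to 3′ on the strand of the gene. Capitals mark the STAT6 motif (TTC, any 4 bases, GAA), the GATA motif AGATAA or its complement TTATCT, and the amino acid response motif TGATGNAA.
Il13 (chr11:53634703-53634952, minus strand): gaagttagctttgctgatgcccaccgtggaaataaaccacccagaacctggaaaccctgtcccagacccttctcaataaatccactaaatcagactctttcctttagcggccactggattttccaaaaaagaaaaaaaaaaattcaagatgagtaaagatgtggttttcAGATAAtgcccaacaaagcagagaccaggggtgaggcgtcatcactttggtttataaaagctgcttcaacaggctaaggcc
Ccl17 (chr8:94810203-94810452, plus strand): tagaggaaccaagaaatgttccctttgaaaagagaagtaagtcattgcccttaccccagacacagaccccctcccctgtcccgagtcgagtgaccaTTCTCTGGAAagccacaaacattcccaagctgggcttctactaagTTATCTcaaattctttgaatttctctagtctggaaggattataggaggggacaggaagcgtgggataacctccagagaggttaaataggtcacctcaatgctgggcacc
Retnla (chr16:48842359-48842608, plus strand): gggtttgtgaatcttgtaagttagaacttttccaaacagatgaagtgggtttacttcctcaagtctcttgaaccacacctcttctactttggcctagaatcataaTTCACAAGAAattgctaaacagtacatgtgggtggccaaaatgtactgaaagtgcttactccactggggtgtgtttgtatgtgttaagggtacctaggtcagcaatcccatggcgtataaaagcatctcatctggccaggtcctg
Asns (chr6:7693210-7693459, minus strand): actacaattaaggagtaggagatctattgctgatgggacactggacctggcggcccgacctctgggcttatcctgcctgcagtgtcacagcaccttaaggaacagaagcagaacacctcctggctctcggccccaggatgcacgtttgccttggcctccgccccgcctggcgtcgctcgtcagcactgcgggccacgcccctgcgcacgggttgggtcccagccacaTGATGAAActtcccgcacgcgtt

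The GATA motif starts 81 bases before the start of Il13 and 109 before that of Ccl17, the STAT6 motif 145 bases before Retnla and upstream of the GATA motif in Ccl17, and the amino acid motif 23 before Asns. Both strands were searched from 250 bases before to 50 after the start, and the motifs do not overlap in these 4 genes. Promoters were found for 13410 of the measured genes, of which 6.91% held the STAT6, 8.82% the GATA and 3.0% the amino acid motif. Of the 81 genes lower in reconstituted lesions, 55 had a promoter in the table, and 10.9%, 14.5% and 5.45% of these held the respective motifs. A match describes the letters and does not show binding.

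The type 2 cytokine genes Il5 and Il13 had the largest falls in the ILC2 lists. Il5, the eosinophil growth factor gene, was counted 6, 2, 6 and 5 times in reconstituted lesions 1 to 4 and 45, 72, 38 and 35 times in the Cre controls. Every reconstituted library lay below every Cre control. Its log2 fold change was -3.39 ± 0.51 (SE), 10.5-fold lower (edgeR quasi-likelihood adjusted p = 1.64e-04). Il13 stood at 0.0955, 0.0414, 0.484 and 0.14 CPM (read counts scaled to library size, with edgeR's trimmed mean of M-values) against 2.21, 3.56, 2.71 and 1.55. It was again lower without overlap, by -3.74 ± 0.55 on the log2 scale, 13.4-fold (edgeR adjusted p = 1.28e-04). Both genes passed in all 8 fits that left out 1 library. In a fit of the 8 libraries alone, which estimates the spread from these libraries only, the changes were -3.38 and -3.73 and did not pass (adjusted p = 0.065 and 0.161). Over 20 alternatives the adjusted p ran up to 0.537 for Il5 and 0.567 for Il13. In bulk lesions, fewer cells of a type and less RNA per cell cannot be told apart.

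Of the other ILC2 products on the list, Il6, Calca and 3 more were measured and none passed, and Il4, Il9, Csf2 and Areg were not analysed here. Calca, which encodes the neuropeptide CGRP, was 0.196 to 1.6 CPM in reconstituted and 0.383 to 1.56 CPM in Cre-control lesions. Il6 was 0.252 to 3.42 against 0.448 to 2.33 CPM. The groups overlapped for both genes. The 95% interval of the log2 fold change was -1.14 to 1.49 for Calca and -0.90 to 1.57 for Il6. The median over the 7 measured members was 0.17, beside 0.01 over all genes.

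Among 26 ILC2 regulators and receptors, 3 fell, beside 0.381% of all genes, none rose and the median log2 fold change was -0.46. Gata3, the lineage factor of ILC2s, was 2.9, 2.15, 2.98 and 1.57 CPM in reconstituted lesions against 8.72, 8.77, 6.22 and 7.39 in Cre controls. All 4 reconstituted libraries were below the lowest control, by -1.69 ± 0.39 (log2, edgeR adjusted p = 0.0321). It did not pass without reconstituted lesion 1, 2 or 4 or Cre control 1 or 2 (adjusted p up to 0.131). Il2ra, the high-affinity chain of the IL-2 receptor, was 3.97, 3.15, 3.06 and 3.33 against 17.7, 22.9, 14.1 and 17 CPM. This was a separation of -2.41 ± 0.44 with little spread within the reconstituted group (edgeR adjusted p = 0.00267), and it also passed in the fit of the 8 libraries alone (adjusted p = 0.00561).

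Il1rl1 was 11.4, 15.3, 19.7 and 5.45 CPM in reconstituted and 69.7, 109, 19.9 and 27.6 CPM in Cre-control lesions. The groups only just separated, at reconstituted lesion 3 and Cre control 3. The log2 fold change was -2.13 ± 0.44 (edgeR adjusted p = 0.0112), and it did not pass without reconstituted lesion 1 or 4 or Cre control 2 (adjusted p up to 0.0913). Il33, the gene of its ligand, did not pass, with 11.7 to 84.1 CPM in reconstituted and 23.4 to 50.1 in Cre-control lesions and a 95% interval of -0.62 to 1.14. Klrg1 and Nmur1 were lower in mean level and did not pass in the edgeR test. Klrg1, an inhibitory receptor of mature ILC2s, was 0.43 to 1.1 against 1.96 to 3.31 CPM without overlap (log2 -1.66 ± 0.44, edgeR adjusted p = 0.0651), and passed in 2 of 20 alternatives, DESeq2 (adjusted p = 0.0125) and limma voom (adjusted p = 0.0382). Nmur1, the neuromedin U receptor whose locus drives the Cre, was 0.112 to 0.496 against 0.622 to 1.67 CPM (log2 -2.01 ± 0.88, edgeR adjusted p = 0.291).

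T cells can also express Il5, Il13, Gata3 and Il2ra. None of the 14 T cell genes passed in either direction, their median log2 fold change was 0.79, and 6 lay without overlap above the Cre controls and 1 below. Over all genes, 2.95% lay above and 2.91% below in this way. The summed share of the list was 0.00268 to 0.00454% of counts in reconstituted and 0.00163 to 0.00232% in Cre-control lesions. Against deficient fragments in Cre-control hosts all 14 were negative, with a median of -0.84, and the part of T cells in these results was not tested. Tnfrsf8, which encodes the lymphocyte activation receptor CD30, was 1.22, 1.43, 1.08 and 1.23 CPM against 3.89, 5.9, 5.15 and 4.91. It was lower by -2.0 ± 0.37 (log2, edgeR adjusted p = 0.00267), the groups did not overlap, and it was chosen for mention after its values were seen. Id2, the gene deleted in ILC2s of this genotype, was 49.5 to 76.5 CPM in reconstituted and 30.2 to 61.8 in Cre-control lesions (log2 0.43 ± 0.26, edgeR adjusted p = 0.432). Many cell types express Id2, so its level in whole lesions is no check of the deletion.

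**Figure D2:**
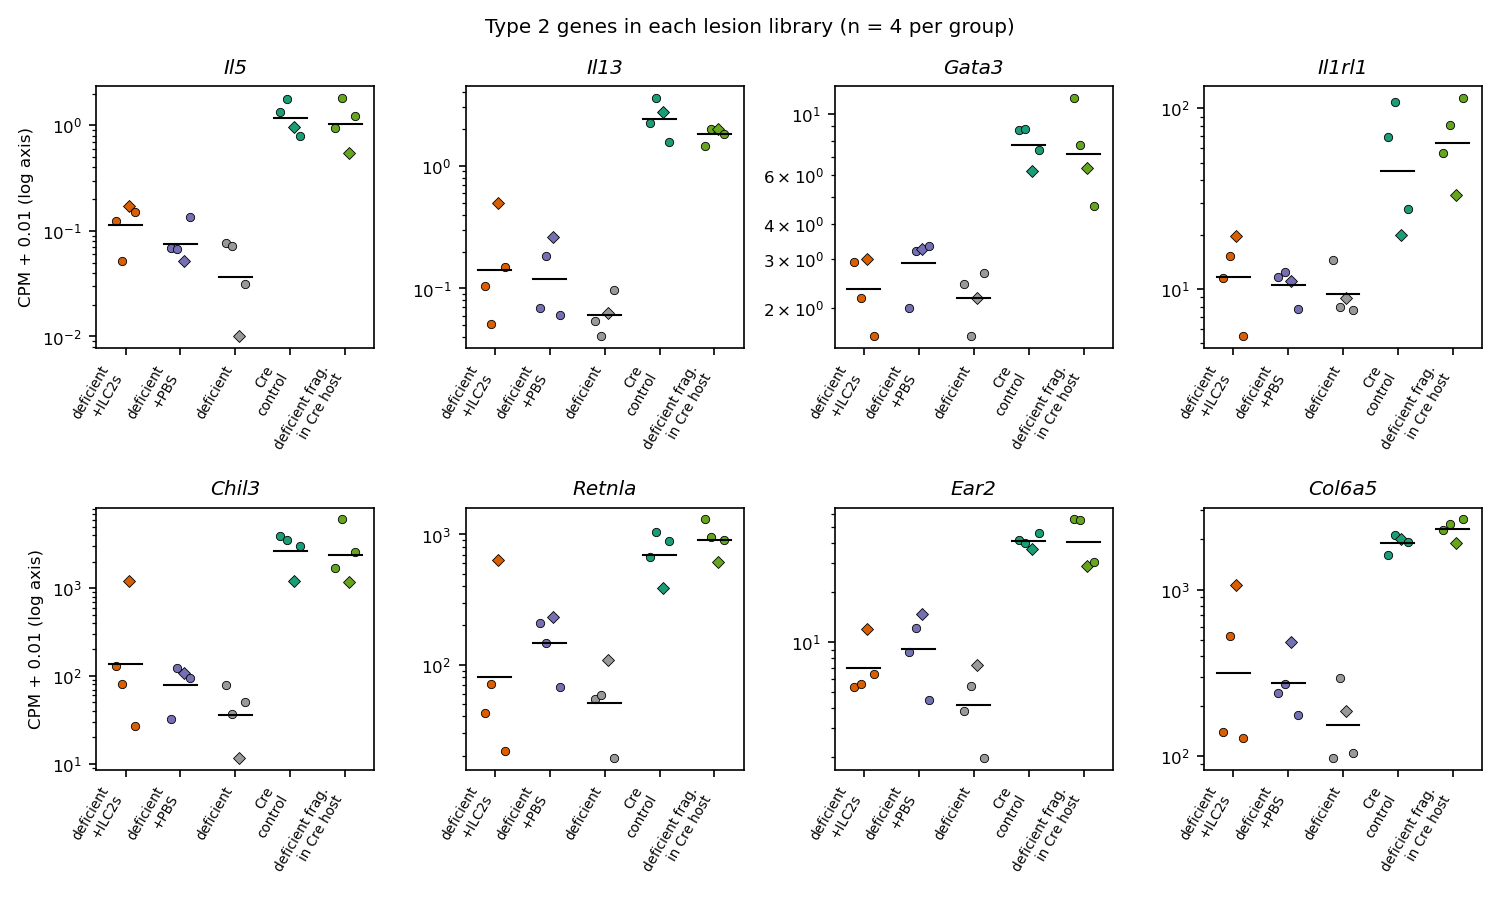
CPM + 0.01 on a log axis for 8 genes in 5 IL-33-treated groups of 4 libraries; each point is a library, diamonds are replicate 3 and lines are means on the log scale. Reconstituted lesions (deficient +ILC2s) lie near the added-PBS lesions for Il5, Il13, Gata3 and Ear2, and replicate 3 lies just under the lowest Cre control for Chil3 and within their range for Retnla.

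Of 17 receptors and signalling genes of the type 2 pathway, 1 fell, beside 0.381% of all genes, none rose and the median was -0.23. Cish, a feedback inhibitor induced by STAT5 after IL-2 family, IL-5 and related cytokine signals, was 13.6, 10.8, 24.3 and 19 CPM in reconstituted and 37.9, 48.4, 54.2 and 41.5 in Cre-control lesions. The groups did not overlap (log2 -1.42 ± 0.31, edgeR adjusted p = 0.0204), though the adjusted p reached 0.0967 without reconstituted lesion 1 or 2 or Cre control 2 or 3. The shared IL-4 and IL-13 receptor chains were not lower in mean level, with Il4ra at 137 to 267 against 129 to 228 CPM and Il13ra1 at 43.3 to 84.4 against 52.5 to 64. Il13ra2, which encodes the decoy receptor for IL-13, was 0.849 to 2.04 against 2.05 to 3.85 CPM without overlap but did not pass (log2 -1.22 ± 0.48, edgeR adjusted p = 0.239).

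Several products of alternatively activated macrophages were highest in reconstituted lesion 3. Chil3, the gene of the chitinase-like protein Ym1, was 129, 80.1, 1191 and 27.2 CPM in reconstituted lesions and 3946, 3549, 1198 and 3020 CPM in Cre controls. Reconstituted lesion 3 lay just under the lowest control and the other 3 far below it. Over all 4 the log2 fold change was -3.04 ± 0.96 and did not pass (edgeR adjusted p = 0.141), and without lesion 3 it was -5.22 ± 1.05 and passed (adjusted p = 0.00619). With all libraries Chil3 passed with DESeq2 (adjusted p = 0.019) and limma voom (adjusted p = 0.0121), and over 20 alternatives its adjusted p ran from 0.00619 to 0.631, with 3 passing. Retnla was 42.2, 70.6, 636 and 21.6 against 667, 1046.5, 389 and 893 CPM. Lesion 3 here lay above Cre control 3. The log2 change moved from -1.96 ± 0.79 (edgeR adjusted p = 0.248) to -4.06 ± 0.79 (adjusted p = 0.00435) when lesion 3 was left out. Retnla passed with limma voom (adjusted p = 0.0467) but not with DESeq2 (adjusted p = 0.125) on all libraries. Chil4, of the same list, differed in this, with lesion 1 as its distant library (22.2 CPM). Without lesion 3 its log2 change was -5.27 ± 1.98 and did not pass (edgeR adjusted p = 0.133). Chil4 passed in 1 of 20 alternatives, DESeq2 on all libraries (log2 -5.57, adjusted p = 0.00759).

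In this macrophage list of 24 genes, 2 fell with all libraries (Ccl17 and Ccl24), 23 had a negative change and the median was -0.92. Without reconstituted lesion 3, 8 fell and the median was -1.55, while the number lower among all genes went from 81 to 307. Without Cre control 3, 1 of the list fell. Of 16 general macrophage and monocyte genes none passed, 11 were negative and the median was -0.22, and the difference between the lists was not tested. Mrc1, the mannose receptor gene, was 184 to 424 CPM in reconstituted and 332 to 780 in Cre-control lesions, with overlap (log2 -0.69 ± 0.33, edgeR adjusted p = 0.333). Arg1, which encodes the arginine-degrading enzyme arginase 1 of ILC2s and macrophages, was 185, 183, 586 and 39.9 against 749, 1048, 612 and 284 CPM. Its groups overlapped and it did not pass (log2 -1.44 ± 0.66, edgeR adjusted p = 0.314).

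Chemokines of type 2 responses showed 3 of 13 measured members lower, beside 0.381% of all genes, and none higher, with a median of -0.79. Ccl17, a ligand of the lymphocyte receptor CCR4, was 0.363, 0.207, 1.18 and 0.699 CPM in reconstituted and 6.75, 8.28, 3.06 and 2.93 in Cre-control lesions. The groups did not overlap (log2 -3.11 ± 0.61, edgeR adjusted p = 0.00623), and the adjusted p was 0.0533 without reconstituted lesion 1. Ccl11 encodes the eosinophil attractant eotaxin-1 and was 7.33, 13.8, 11.7 and 7.24 against 20.4 to 41.4 CPM (log2 -1.69 ± 0.35, edgeR adjusted p = 0.0114). Without reconstituted lesion 1 or 4 or Cre control 2 its adjusted p rose to at most 0.0751. Ccl24, for eotaxin-2, was 2.46, 7.47, 13.6 and 4.7 against 32.9, 39, 22.1 and 12.2 CPM. Reconstituted lesion 3 lay above Cre control 4, and the change of -1.91 ± 0.48 passed narrowly (edgeR adjusted p = 0.0498). It passed in 2 of the 8 fits that left out 1 library, those without reconstituted lesion 3 or Cre control 4 (adjusted p up to 0.19).

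Ear2, an eosinophil-associated ribonuclease gene also used by macrophages, was 5.36, 5.59, 12 and 6.43 CPM in reconstituted and 41.4, 39.9, 36.7 and 45.7 in Cre-control lesions. No library overlapped, and the log2 change was -2.48 ± 0.38 (edgeR adjusted p = 2.07e-04; 0.0275 in the fit of the 8 libraries alone). It was the only gene to pass among 9 measured eosinophil markers (median -1.03), beside 0.729% of all genes. The related Rnase2a was 2.08, 7.08, 35 and 2.21 against 49.1 to 91.7 CPM and did not pass over all libraries (log2 -2.55 ± 0.75, edgeR adjusted p = 0.111), but passed without lesion 3 (-4.16 ± 0.78, adjusted p = 0.00333). Rnase2a also passed on all libraries with DESeq2 (adjusted p = 0.0199) and limma voom (adjusted p = 0.00197), which with the fit without lesion 3 made 3 of 20 alternatives. Ear2 and Rnase2a, like Chil3 and Chil4, are close relatives whose reads can be shared or lost, so each value is uncertain. Siglecf, a surface receptor of eosinophils, was 1.72 to 3.59 against 4.1 to 7.51 CPM without overlap (log2 -1.04 ± 0.35, edgeR adjusted p = 0.166). Prg2, the granule major basic protein gene, was at or under 0.403 CPM in reconstituted lesions and at or under 0.796 in Cre controls.

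The groups also separated for Col6a5. With Ccl11 it made 2 called genes of 17 in the list of stromal and matrix genes with type 2 induction (median -0.85). Among all genes, 0.729% were called. Col6a5, a collagen VI chain gene, was 139, 529, 1066 and 129 CPM in reconstituted and 1618, 2137, 2012 and 1940 in Cre-control lesions. The controls were tight while reconstituted lesions spread widely, with lesion 3 highest. The log2 change was -2.05 ± 0.50 (edgeR adjusted p = 0.0438), and it passed in 1 of the 8 fits that left out 1 library. That fit left out reconstituted lesion 3 (-2.86 ± 0.51), and the adjusted p of the others reached 0.171. In the fit of the 8 libraries alone, Gata3, Il1rl1, Cish, Ccl11, Ccl17 and Col6a5 kept their direction and did not pass, with adjusted p from 0.0878 for Gata3 to 0.483 for Col6a5.

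Cell-cycle genes lay on the other side. None of 17 proliferation genes passed with all libraries, yet all 17 had a positive change, 12 lay without overlap above the Cre controls and the median was 0.90. Over all genes, 48.7% had a negative change and 2.95% lay without overlap above. In Cre-control against deficient lesions 12 of the 17 were lower (median -1.22), beside 1.63% lower among all genes. Mki67, a nuclear protein of dividing cells, was 101 to 241 CPM in reconstituted and 70.8 to 102 CPM in Cre-control lesions. Lesion 3, the lowest, fell within the range of the controls and the other 3 above it (log2 0.78 ± 0.30, edgeR adjusted p = 0.233). Bub1, a spindle checkpoint kinase gene, was 10.2, 9.94, 6.4 and 19.8 against 4.32 to 6.25 CPM and did not pass with all libraries (log2 1.14 ± 0.36, edgeR adjusted p = 0.138), but did without lesion 3 (1.34 ± 0.37, adjusted p = 0.0399). Against wild-type lesions Mki67 and Bub1 passed (log2 1.47 and 1.74, edgeR adjusted p = 0.00638 and 0.00647), and against floxed lesions they did not. Kif18a, a mitotic kinesin gene among the 8 largest rises, was 7.01, 5.96, 5.24 and 11.8 against 2.16 to 4.13 CPM (log2 1.16 ± 0.25, edgeR adjusted p = 0.0145), and did not pass without reconstituted lesion 4 or Cre control 3 (adjusted p up to 0.141). Interferon-response genes had a median of 0.27 with none of 18 passing, and endometrial epithelium a median of -0.52 with none of 15 passing. None of the remaining lists, covering resident peritoneal macrophages, neutrophils, mast cells, B cells, NK cells, dendritic cells, endometrial stroma, estrogen response, muscle, fat, mesothelium, endothelium, liver, blood and mitochondrial mRNAs, had a member that passed.

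Among genes with a mean of at least 1 CPM, no overlap and a settled gene name, the largest falls besides the type 2 genes were Rec8, Esr2 and Mt2. Rec8, a cohesin subunit gene best known from meiosis, was 0.363, 0.145, 0.108 and 0.28 CPM in reconstituted and 5.04, 4.89, 9.18 and 4.23 in Cre-control lesions (log2 -4.68 ± 0.86, edgeR adjusted p = 0.00267). It was also low in deficient lesions, 0.0210 to 0.101 CPM with added PBS and 0.554 to 0.721 CPM with IL-33 alone, and in deficient fragments in Cre hosts, 0.634 to 0.966 CPM. Esr2, the estrogen receptor beta gene, was 0 to 0.28 against 0.671 to 1.56 CPM (edgeR adjusted p = 0.0329), and did not pass without reconstituted lesion 1 or 2 or Cre control 1 or 4 (adjusted p up to 0.134). Mt2, a metallothionein gene, was 6.6 to 19.3 against 32.3 to 136 CPM with Cre control 3 highest. It passed narrowly (edgeR adjusted p = 0.0498) and in 2 of the 8 fits that left out 1 library, and without Cre control 3 its log2 change was -1.54 ± 0.53 (adjusted p = 0.272). The largest rises were the pseudogene Ncoa4-ps (log2 4.78 ± 0.85), Tes3-ps, Nxnl2, C1ql3, Lrrc55, Ube2ql1, Zdhhc2 and Kif18a. Lrrc55, for an auxiliary subunit of potassium channels, was 7.43 to 13.8 CPM against 1.67 to 5.16 and stood at 7.67 to 14.5 CPM in added-PBS lesions. Nxnl2, C1ql3 and Zdhhc2 passed in 2 of the 8 fits that left out 1 library. None of the falls and rises in this paragraph passed against floxed lesions. There the log2 changes were -2.17 for Rec8, -0.38 for Esr2, -0.63 for Mt2 and 0.06 to 1.40 for the rises. Against wild-type lesions Rec8, Esr2, Mt2, Ncoa4-ps, Tes3-ps and Lrrc55 passed, and the other rises did not.

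The genes for which competent lesions exceed deficient ones were then defined without any library of this comparison. This ILC2-dependent programme held the 207 genes at least 2-fold lower, at an adjusted p under 0.05, in IL-33-treated deficient lesions than in the mean of wild-type and floxed lesions, and 94 of them carry model names. In the direct comparison, 27 of the 207 fell and none rose, beside 0.381% lower among all genes. The median log2 fold change was -0.74 against 0.01 over all genes, 170 were negative, and 76 stood at least 2-fold below the Cre-control level. For the 43 genes at least 4-fold lower in deficient lesions, 11 fell and the median was -1.59. The genes with the largest difference in that definition were Igkv4-68, Igkv8-28, Chil3, Mrgprg, Rnase2a, Il13, Ccl17, Msx3, Retnla and Il5. The immunoglobulin segments were not lower in reconstituted lesions (log2 0.21 ± 1.16 and 1.45 ± 1.44) and belong to a family with shared sequence. Msx3, a homeobox gene, was 0.153, 0.29, 3.41 and 0.028 CPM against 0.923 to 7.51, again with lesion 3 inside the Cre-control range.

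The mean log2 CPM of the 207 genes was 0.59 ± 0.48 (SD, n = 4) in reconstituted and 1.51 ± 0.24 in Cre-control lesions. It was 0.60 ± 0.08 in added-PBS lesions and 0.52 ± 0.18 (n = 2) in deficient lesions given 120000 ILC2s. In deficient lesions with IL-33 alone, whose libraries helped choose the genes, it was -0.00 ± 0.21. The reconstituted mean lay near that of the added-PBS lesions and above that of the lesions with IL-33 alone, and its SD was the largest of the 11 groups. The median difference from the Cre-control mean was -0.90, -0.75, -0.12 and -1.21 in reconstituted lesions 1 to 4. In lesion 3, 149 of the 207 genes reached at least the lowest Cre control, and in the others 77, 84 and 62 did. Without lesion 3 the median log2 fold change of the programme was -1.03.

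**Figure D3:**
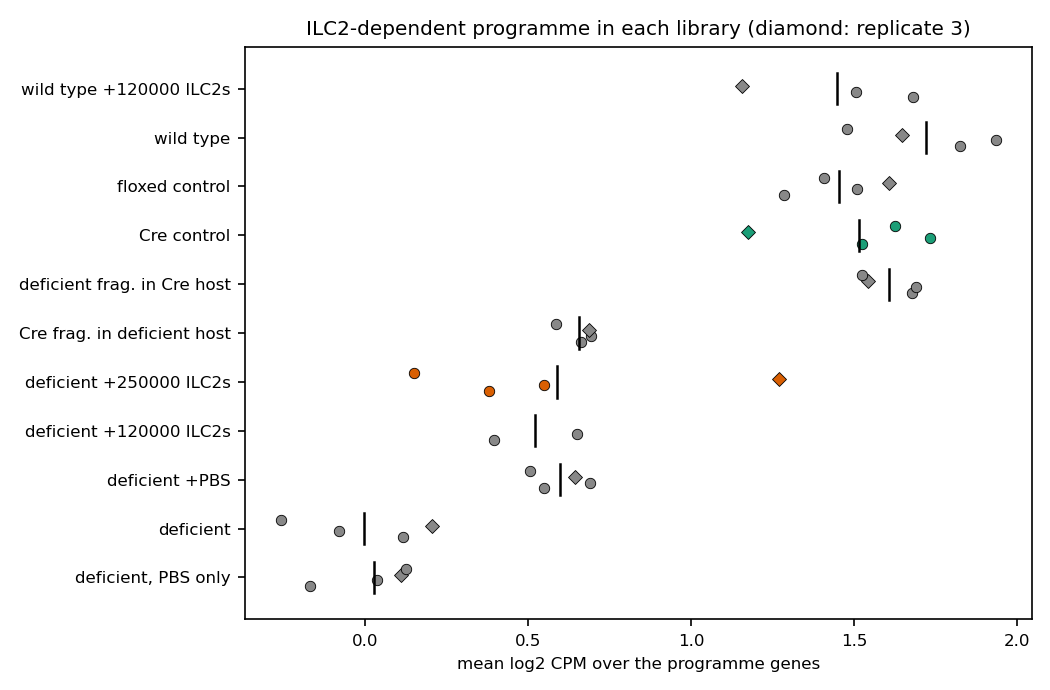
Mean log2 CPM of the 207 programme genes in each of the 41 libraries by group; vertical lines are group means and diamonds replicate 3. Wild-type, floxed and deficient lesions with IL-33 alone chose the genes; 3 of the 4 reconstituted lesions (orange) lie below the Cre controls (green), and lesion 3 lies among them.

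Reconstituted lesions were next set against lesions given added PBS, which share their fragment genotype and their series of library names. No gene passed (0% of 21249; edgeR lowest adjusted p = 0.348), while 1849 had an unadjusted p under 0.05, limma voom called 0 and DESeq2 called 14. Il5 was 0.0594, 0.0577, 0.0419 and 0.126 CPM with added PBS, which overlapped the reconstituted lesions, and the 95% interval of its log2 change was -0.53 to 1.81. That of Il13 was -0.72 to 1.59. For comparison, Cre-control exceeded deficient lesions by 4.92 ± 0.58 for Il5 and 5.44 ± 0.62 for Il13 on the log2 scale. Chil3 was 32, 123, 108 and 95.2 CPM with added PBS, so that reconstituted lesions 1 and 3 lay above all of these libraries and lesion 4 below all of them. The 95% interval of its log2 change was 0.11 to 3.88 (edgeR adjusted p = 0.571).

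The difference between these 2 gains, (reconstituted minus added PBS) minus (Cre control minus deficient), passed for 38 genes, 0.179% of all, of which the 18 lower genes were 0.0847%. The gain from transfer was smaller for Il13 by -5.00 ± 0.83, Il5 by -4.28 ± 0.83, Ccl17 by -4.10 ± 0.86, Ear2 by -3.59 ± 0.53 and Il2ra by -2.92 ± 0.61 on the log2 scale. Their edgeR adjusted p-values ran from 5.92e-04 for Ear2 to 0.0289 for Ccl17. This contrast also holds the difference between its baselines, added-PBS and deficient lesions, whose programme means were 0.60 and -0.00. In the direct comparison, without these baselines, the log2 change was -3.74 for Il13 and -3.39 for Il5. Gata3 (-2.11 ± 0.55, adjusted p = 0.0893) and Il1rl1 (-2.26 ± 0.60, adjusted p = 0.0945) did not pass. Of the 207 programme genes, 12 were lower and none higher in this contrast, which shares the deficient libraries that chose them.

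A choice of genes from libraries outside all 4 of these groups gives the same comparison with no shared library. The fragment exchange, libraries labelled as Cre-control fragments in deficient hosts against those labelled as deficient fragments in Cre hosts, left 92 genes at least 2-fold lower at an adjusted p under 0.05. Cre control exceeded deficient lesions by a median log2 value of 1.58 over these genes, and 60 rose, beside 2.2% higher and 1.63% lower among all genes in that contrast. Reconstituted exceeded added-PBS lesions by a median of 0.43, and none passed. The gain with transferred cells, over the same baselines as above, was the smaller for 86 of the 92, beside 50.6% of all genes. In the direct comparison 24 of the 92 fell, beside 0.381% of all genes, none rose and the median was -1.16.

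**Figure D4:**
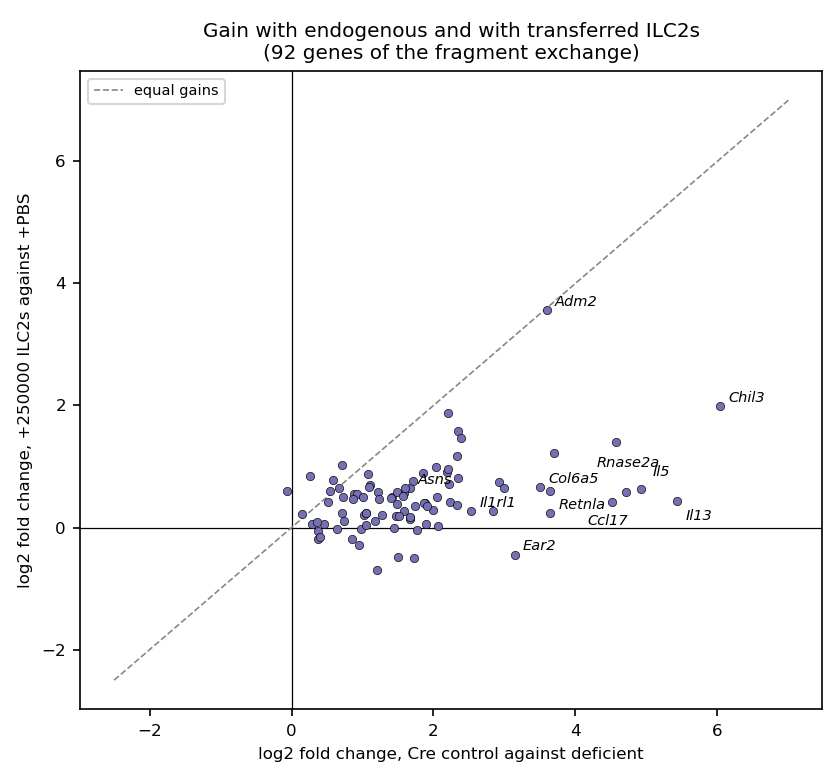
For the 92 genes lower in the libraries labelled with deficient hosts in the fragment exchange, the log2 fold change of reconstituted against added-PBS lesions (y axis) against that of Cre-control against deficient lesions (x axis); the dashed line marks equal gains. Of the 92 points, 86 lie below the line, with Il5, Il13, Ccl17 and Ear2 near 0 on the y axis.

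Reconstituted lesions were also set against the libraries labelled as deficient fragments in Cre-control hosts, which share the labelled fragment genotype. For 2 of the 24 called genes near Id2 the mean of those libraries was nearer to the reconstituted than to the Cre-control mean, so the fragment genotype may not be matched in this comparison. In this contrast 106 genes passed, 0.499% of all tested. The 76 lower genes were 0.358% and 30 were higher, and 33 of the 207 programme genes were among the lower. Il5 was 0.929, 1.81, 0.535 and 1.21 CPM in these libraries and Il13 1.45, 1.99, 1.96 and 1.81 CPM, all above every reconstituted lesion. The log2 changes were -3.29 ± 0.51 (edgeR adjusted p = 5.59e-04) and -3.26 ± 0.54 (adjusted p = 0.00113). Gata3, Il1rl1, Il2ra, Ccl11, Ccl17, Ccl24, Ear2 and Col6a5 passed as well, by -1.65 to -3.20, while Cish did not (-1.16 ± 0.31, adjusted p = 0.0902). Both comparisons share the reconstituted libraries.

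The other competent genotypes set the size of the shortfall differently. Against wild-type lesions 584 genes passed, with 208 lower, and against floxed lesions 90, with 16 lower. These share the reconstituted libraries, and their library names form series of their own. Il13 was lower by -2.56 ± 0.53 than in wild-type lesions (edgeR adjusted p = 0.00621) and by -2.31 ± 0.53 than in floxed lesions (adjusted p = 0.0434), and Ear2 by -2.76 ± 0.39 (adjusted p = 5.34e-05) and -1.85 ± 0.37 (adjusted p = 0.0238). Il5 passed against wild type (-2.31 ± 0.51, adjusted p = 0.00847) and missed the threshold against floxed lesions (-2.09 ± 0.50, adjusted p = 0.0502). Il2ra and Il1rl1 did not pass against floxed lesions, where they were 3.28 to 6.68 and 12.4 to 21.9 CPM, with log2 changes of -0.40 ± 0.42 and -0.47 ± 0.42. Ccl24 was level with floxed lesions in the point estimate (-0.01 ± 0.46). Gata3, Ccl11, Ccl17, Cish and Col6a5 also did not pass there, with log2 changes of -0.91 to -1.95 (edgeR adjusted p 0.060 to 0.132). Against wild-type lesions Gata3, Il1rl1, Ccl11 and Cish did not pass (edgeR adjusted p 0.0761 to 0.65), while Il2ra, Ccl17, Ccl24 and Col6a5 did. Of the 207 programme genes, which these genotypes helped choose, 5 fell against floxed and 49 against wild-type lesions.

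A list of 28 amino acid response genes was drawn up after values of these libraries had been seen, so its counts describe and test nothing. In it, 13 fell, none rose, 27 were negative, 14 lay without overlap below the Cre controls and the median was -1.0. Over all genes, 0.381% fell and 2.91% lay without overlap below. Asns, asparagine synthetase, was 12.3, 9.54, 15.7 and 13.7 CPM in reconstituted and 55.5, 63.6, 29.8 and 28.2 in Cre-control lesions (log2 -1.79 ± 0.32, edgeR adjusted p = 0.00188). No library overlapped, and it passed in all 8 fits that left out 1 library. Trib3, a pseudokinase gene induced by ATF4, was 3.3, 2.73, 10.3 and 2.46 against 15.6, 26.3, 10.6 and 8.38 CPM. Reconstituted lesion 3 lay inside the range of the controls (log2 -1.70 ± 0.39, edgeR adjusted p = 0.0321). Trib3, Slc7a3, Atf4, Ddit3, Phgdh, Mthfd2 and Slc3a2 each passed in 3 of those 8 fits, Aldh1l2 in 5 and Sesn2 in 2. Against added-PBS lesions the median of the list was 0.23. Against floxed lesions Asns did not pass (log2 -0.32, edgeR adjusted p = 0.644). Nor did Trib3 or the other members just named, with log2 changes of -0.08 to -0.58. Against wild-type lesions Asns and Aldh1l2 passed, and the rest of those named did not. Of the 20 members with a promoter in the table, 40.0% held the motif TGATGNAA.

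Part of the direct comparison lay around Id2 itself. Within 15 Mb of its start on chromosome 12, 24 of 150 tested genes passed, 16%, with 9 lower and 15 higher, against 0.621% of genes elsewhere. For 23 of the 24, the floxed-control mean was nearer to the reconstituted than to the Cre-control mean, and the wild-type mean was nearer for 1. Gm6969, a gene model, was 19.3, 19, 15.9 and 18.8 CPM in reconstituted and 0.737, 0.667, 1.74 and 1.1 in Cre-control lesions. Floxed lesions stood at 21.2 to 25.9 CPM and wild-type lesions at 1.31 to 1.64. Rps7, a ribosomal protein gene, was 43.2 to 71.5 CPM against 111 to 120 in Cre-control, 52.8 to 65.9 in floxed and 99.3 to 120 in wild-type lesions (log2 -1.03 ± 0.16 against Cre controls, edgeR adjusted p = 1.64e-04). The carriage of floxed Id2 and the source of the ILC2s cannot be told apart in the direct comparison, for these or other genes. Outside this window, 131 of 21099 genes passed. Among those 131, the floxed-control mean was nearer to the reconstituted than to the Cre-control mean for 70, and the wild-type mean for 30. Of the 27 programme genes that fell, 22 lay outside the window and 5 inside. Deficient fragments in Cre-control hosts, whose label names floxed Id2 too, stood at 1.01 to 5.35 CPM for Gm6969 and 91.8 to 131 CPM for Rps7, nearer to Cre-control than to reconstituted lesions.

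**Figure D5:**
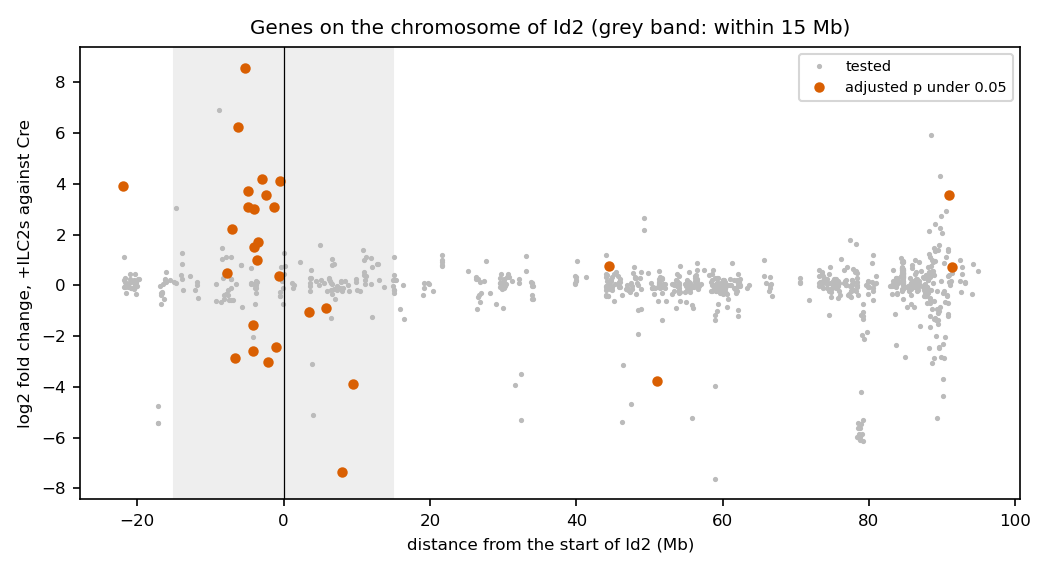
Log2 fold change of reconstituted against Cre-control lesions (y axis) for genes on chromosome 12 by the distance of their start from that of Id2 (x axis, Mb). Orange points passed; 24 of the 29 called genes of the chromosome lie in the grey band of 15 Mb on either side.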

How the data were processed

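RNA was sequenced from 41 mouse lesions, and the authors deposited raw counts per gene, not normalized. Per the submitters' processing notes, Trimmomatic, STAR, HTSeq, edgeR, limma and the build GRCm38 were used; versions and strandedness are not given in the sources used here, so reads of overlapping or antisense genes cannot be told apart. Counts were tested as deposited: edgeR 4.0.16 (R 4.3.3) fitted the 11 groups of the 41 libraries together, after TMM scaling, with robust quasi-likelihood F-tests. The expression filter removed none of the 21249 genes. Adjusted p-values are Benjamini-Hochberg over all genes, with 0.05 as the threshold. Standard errors were derived from F and the fold change, and intervals are 95%. The members, gene lists and tests were chosen with earlier results of these data known. Named genes were members of the type 2 lists, the 8 largest rises and 8 largest falls among called genes without overlap, with at least 1 CPM and no model name, the 10 largest of the programme, and Id2; Tnfrsf8, Cox7a2l and genes of the amino acid, clock and ribosomal lists were added after values were seen. Alternatives used other scalings and filters, DESeq2 1.42.0, limma 3.58.1 voom, fewer libraries, a replicate block and other competent genotypes. Distances from Id2 are from GENCODE M21 and promoters from RefSeq, both on GRCm38. Scripts were tested on simulated data.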

Additional observations from a re-analysis of the deposited data

Results flagged for a closer look

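Among 170 groups of 4 libraries checked, 15 had 1 library far from the other 3, where chance flags about 1 in 20. Reconstituted lesion 3 was the distant library for Chil3 (1191 CPM), Retnla (636 CPM), Ear2 (12.0 CPM), Rnase2a (35.0 CPM), Msx3 (3.41 CPM), Trib3 (10.3 CPM) and, as the lowest, Gm6969 (15.9 CPM). Reconstituted lesion 1 was distant for Chil4 (22.2 CPM). Reconstituted lesion 2 was distant for the liver gene Alb (304 CPM) and the liver list (0.138% of counts).

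Cre control 3 was the distant library for Alb (38320 CPM), the liver list (7.09% of counts), Mt2 (136 CPM) and Rec8 (9.18 CPM), and Cre control 2 for the costimulatory receptor gene Icos (1.58 CPM).

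The gain from transferred cells differed from the gain with endogenous ILC2s for 7 of the genes named in the text, by the test of the difference itself. On the log2 scale the difference was -4.28 for Il5, -5.00 for Il13, -2.92 for Il2ra, -4.10 for Ccl17, -3.59 for Ear2, 4.01 for Gm6969 and -0.78 for Cox7a2l.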

How the results depend on the processing

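The direct comparison gave 71 genes with library totals as the only scaling, 436 with DESeq2, 17 in the fit of the 8 libraries alone, 90 against floxed lesions (74 higher, 16 lower) and 584 against wild type (376 higher, 208 lower). Leaving out 1 library gave 56 to 656. With the replicate number as a block in the fit of the 8 libraries, 0 genes passed. Same-numbered libraries correlated at -0.36 to 0.33, so the numbers were not taken to pair them. The difference between gains gave 304 genes with DESeq2, 24 with voom and 24 to 243 without 1 library. The comparison with libraries labelled as deficient fragments in Cre hosts gave 64 with library totals, 320 with DESeq2 and 44 to 353 without 1 library. The transfer comparison gave 14 with DESeq2 and 0 to 0 without 1 library. The programme held 121 genes with library totals and 65 to 278 without 1 library. Its median was -1.59 for genes at least 4-fold lower, and -1.03 to -0.62 without 1 library. Against floxed lesions Gm6969 (-0.33) and Acp1 (0.14) reversed. Of 46 called genes among the 83 named or listed for the text, library totals lost 24, Gata3, Cish and Ccl24 among them, and floxed controls 38. Genes below about 1 CPM, such as Il5, rest on few counts. In the direct comparison the labels do not separate fragment genotype from the name series of the libraries.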

Other observations

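Clock genes, a list drawn up after values had been seen, had 3 of 16 members lower in reconstituted than in Cre-control lesions. This stood beside 0.381% lower among all genes, and the median of the list was -0.62. Per3, a repressor of the circadian clock, was 34.1, 35, 38.9 and 40.1 CPM in reconstituted and 77.6, 86.9, 68.9 and 63.7 CPM in Cre-control lesions. No library overlapped (log2 -1.0 ± 0.19, edgeR adjusted p = 0.00323), and it also passed against floxed and wild-type lesions (log2 -1.70 and -0.82). The labels used here give no hour of collection.

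Of 86 ribosomal protein genes, also listed after values had been seen, 12 were lower and 84 had a negative change (median -0.35). Among all genes, 0.381% were lower and 48.7% had a negative change. The 12 include Rps7, which lies within 15 Mb of Id2. With library totals as the only scaling, none of the 86 passed and their median was -0.25. The median over all genes then moved from 0.01 to 0.10. Rplp0, a large-subunit stalk protein gene, was 486 to 556 CPM against 722 to 771 CPM. Cox7a2l, which encodes a factor of respiratory supercomplexes, was 39.3, 40.9, 54.5 and 36.3 CPM against 74.9, 77.6, 71.5 and 83.9 CPM, again without overlap (log2 -0.85 ± 0.10, edgeR adjusted p = 1.08e-05). It passed against wild-type lesions (log2 -0.69, edgeR adjusted p = 1.8e-04) but not against floxed lesions (log2 -0.40, adjusted p = 0.0642). In the fit of the 8 libraries alone Cox7a2l did not pass (edgeR adjusted p = 0.145).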
